A study of Mus musculus with 6 samples.

Results

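The genes described here are the measured members of 2 neighbouring imprinted domains of mouse distal chromosome 7, the Igf2-H19 domain and the Kcnq1 domain. They were taken by gene symbol: H19, Igf2, Ascl2, Cd81, Tssc4, Kcnq1, Cdkn1c, Slc22a18, Phlda2 and Nap1l4. Of these 10 genes 9 had a probe set with that symbol alone in the platform annotation, 1 probe set each, among 19937 genes tested. H19 had none and was not analysed here under its own symbol. The cells were male mouse embryonic stem (ES) cells cloned from 46C, a line of 129P2/OlaHsd background with GFP knocked into Sox1. The FLAG-CTCFL group carried a stably transfected vector for FLAG-tagged mouse CTCFL, and the control vector group carried the control vector. Both groups had the Sox1-GFP allele, grew in medium with 10% serum and were kept under 1 µg/ml puromycin. Each group had 3 replicates, each measured on 1 Affymetrix GeneChip Mouse Gene ST array from 200 ng of total RNA. The design text calls the replicates biological, but whether they are separately transfected lines is not in the labels, and p-values then cover no more than the spread of these 6 arrays.

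Imprinted genes are read mainly from the copy inherited from 1 parent, as set by DNA methylation placed in the germ line. At Igf2-H19 the insulator protein CTCF binds the unmethylated maternal control region and keeps the shared enhancers from Igf2, so that Igf2, a fetal growth factor, is made from the paternal copy and H19, a long non-coding RNA, from the maternal copy. At the Kcnq1 domain the non-coding RNA Kcnq1ot1, made from the paternal copy, silences its neighbours on that copy. CTCFL, also called BORIS, is the paralog of CTCF found in male germ cells and has a nearly identical DNA-binding domain. The comparison asked how the genes of each domain differ in ES cells that make CTCFL. The arrays do not tell the parental copies apart.

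In FLAG-CTCFL cells Igf2 was higher, whereas 3 genes of the Kcnq1 domain that neighbour each other among the measured genes, Cdkn1c, Slc22a18 and Phlda2, and also Cd81 were lower. Tssc4 was slightly higher, and Ascl2, Kcnq1 and Nap1l4 did not pass the test. Phlda2 was 1.96-fold lower and Igf2 1.57-fold higher on the arrays' scale. In counts, 2 of the 9 genes were higher and 4 lower by limma at an adjusted p under 0.05, where 12.5% of all genes tested were higher, 18.4% lower and 30.9% either. The 6 genes that passed also had groups that did not overlap, as had 41.3% of all genes. When all genes were split into 4 equal classes by mean signal, 8 of the 9 lay in the 2 brighter classes, where 50.1% and 48.6% of genes passed, and Kcnq1 lay in the second dimmest, where 21.1% did. The count of genes that passed is read against these shares. All values are log2 signal, and a log2 fold change is FLAG-CTCFL minus control vector with its moderated standard error (SE). In RNA of whole cultures, fewer cells of a type and less RNA per cell cannot be told apart.

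The arrays were alike in overall signal. Their medians lay between 7.92 and 7.99, and Pearson's r over all genes was 0.9969 to 0.9981 within the FLAG-CTCFL group, 0.9983 to 0.9986 within the control vector group and 0.9826 to 0.9849 between groups. FLAG-CTCFL replicate 2 had the smallest SD over probe sets, 1.41 against 1.44 to 1.47 for the others. Ctcfl averaged 11.26 ± 0.06 in FLAG-CTCFL cells and 7.81 ± 0.10 in control vector cells (SD, n = 3 each; limma adjusted p = 6.15e-13), and Ctcf averaged 10.63 ± 0.07 and 10.61 ± 0.04 (limma adjusted p = 0.880).

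Sequences are shown for the members that moved furthest and for miR-675, the microRNA that is cut from H19 RNA and is the only product of H19 that a probe set was annotated to. Mature sequences are from RefSeq (GRCm38.p6, minus strand), written 5′ to 3′ with the seed, bases 2 to 8, in capitals. The 3p arm lies at chr7:142577078-142577099 and the 5p arm at chr7:142577112-142577133.
mmu-miR-675-5p: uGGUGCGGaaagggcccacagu
mmu-miR-675-3p: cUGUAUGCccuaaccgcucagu
The seeds of both arms differ, so the microRNAs made from H19 RNA fall into 2 seed groups.

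Promoter windows, 250 bases before to 50 after a RefSeq start (GRCm38.p6), were found for 6 of the 10 genes. They are shown for Igf2, the member that rose furthest, and for Phlda2 and Slc22a18, the members that fell furthest, because the protein made in these cells reads DNA through the zinc fingers it shares with CTCF. Capitals mark CCCTC, the pentamer CTCF is named after, on either strand (GAGGG where it lies on the other strand). Of 4 windows for Igf2, that at chr7:142657447-142657746 (minus strand) is shown, and which start the cells used was not measured. The Phlda2 window is chr7:143502475-143502774 (minus strand) and the Slc22a18 window chr7:143473539-143473838 (plus strand).
Igf2 promoter: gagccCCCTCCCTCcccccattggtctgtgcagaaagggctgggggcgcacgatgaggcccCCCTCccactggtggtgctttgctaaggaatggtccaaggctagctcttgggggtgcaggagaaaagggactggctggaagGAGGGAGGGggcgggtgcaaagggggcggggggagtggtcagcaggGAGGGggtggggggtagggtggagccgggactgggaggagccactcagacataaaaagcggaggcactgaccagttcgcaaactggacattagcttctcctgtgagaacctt
Phlda2 promoter: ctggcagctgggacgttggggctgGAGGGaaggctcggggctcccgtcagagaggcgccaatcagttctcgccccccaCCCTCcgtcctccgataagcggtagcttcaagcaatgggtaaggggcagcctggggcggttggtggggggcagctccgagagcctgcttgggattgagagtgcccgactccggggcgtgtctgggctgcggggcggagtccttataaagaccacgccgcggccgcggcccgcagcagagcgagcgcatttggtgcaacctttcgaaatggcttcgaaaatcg
Slc22a18 promoter: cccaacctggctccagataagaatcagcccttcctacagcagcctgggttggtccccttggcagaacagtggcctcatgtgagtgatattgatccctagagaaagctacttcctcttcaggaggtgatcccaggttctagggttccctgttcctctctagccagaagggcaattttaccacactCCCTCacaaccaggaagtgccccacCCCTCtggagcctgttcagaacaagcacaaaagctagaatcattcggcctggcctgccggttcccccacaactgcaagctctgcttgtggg
The Igf2 window shown held CCCTC 6 times, counting overlapping matches, and the other Igf2 windows 8, 0 and 1 times, so that the count depends on the start. The Phlda2 and Slc22a18 windows held it 2 times each. Of all 32851 promoter windows 66.0% held CCCTC at least once, 35.9% at least 2 times and 1.87% at least 6 times. TATAAA was in the Phlda2 window and in that of Cd81, and in 13.6% of all windows. The 4 Igf2 windows had 7 (the one shown), 24, 14 and 2 CpG dinucleotides, the Phlda2 window 26 and the Slc22a18 window 2. A longer pattern of the CTCF site, with some bases left open, was also searched for on both strands. It was in none of the 9 windows found for the listed genes, and in 8.61% of all windows. The marked pentamers are therefore not given as binding sites, and binding was not measured.

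Igf2 codes for insulin-like growth factor 2, which drives growth of the fetus and placenta. Its log2 signal was 8.82, 8.88 and 8.89 in FLAG-CTCFL arrays and 8.19, 8.20 and 8.27 in control vector arrays. The groups did not overlap, and the lowest FLAG-CTCFL array lay 0.55 above the highest control array, while the arrays of 1 group lay within 0.08 of each other. The log2 fold change was 0.65 ± 0.04 (SE, n = 3 per group; 95% confidence interval 0.55 to 0.74; limma adjusted p = 1.56e-07). It ranked 123rd from the top among the 19937 genes. Leaving out any 1 array gave 0.63 to 0.67.

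H19, the partner of Igf2, can be approached only through a probe set annotated to both Mir675, the miR-675 gene inside H19, and Supt6, a transcription elongation factor gene on another chromosome. The annotation gives it the RefSeq record of the miR-675 precursor and a cDNA record, so its signal cannot be given to 1 gene. It read 8.52, 8.52 and 8.64 in FLAG-CTCFL arrays and 7.77, 7.69 and 7.74 in control vector arrays, a log2 fold change of 0.82 ± 0.05 (SE, n = 3 per group; limma adjusted p = 2.96e-05 over all 34760 probe sets). All 3 FLAG-CTCFL arrays lay above all 3 control arrays. Its control vector mean, 7.74, was close to 7.63, the level of dim genes used below for Kcnq1, so the size of the change could be understated. The probe set annotated to Supt6 alone read 10.93, 10.62 and 10.86 in FLAG-CTCFL arrays and 10.78, 10.94 and 10.82 in control vector arrays. Its groups overlapped, and its log2 fold change of -0.04 had a 95% confidence interval of -0.24 to 0.15. No value for H19 itself is drawn from either probe set.

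**Figure D1:**
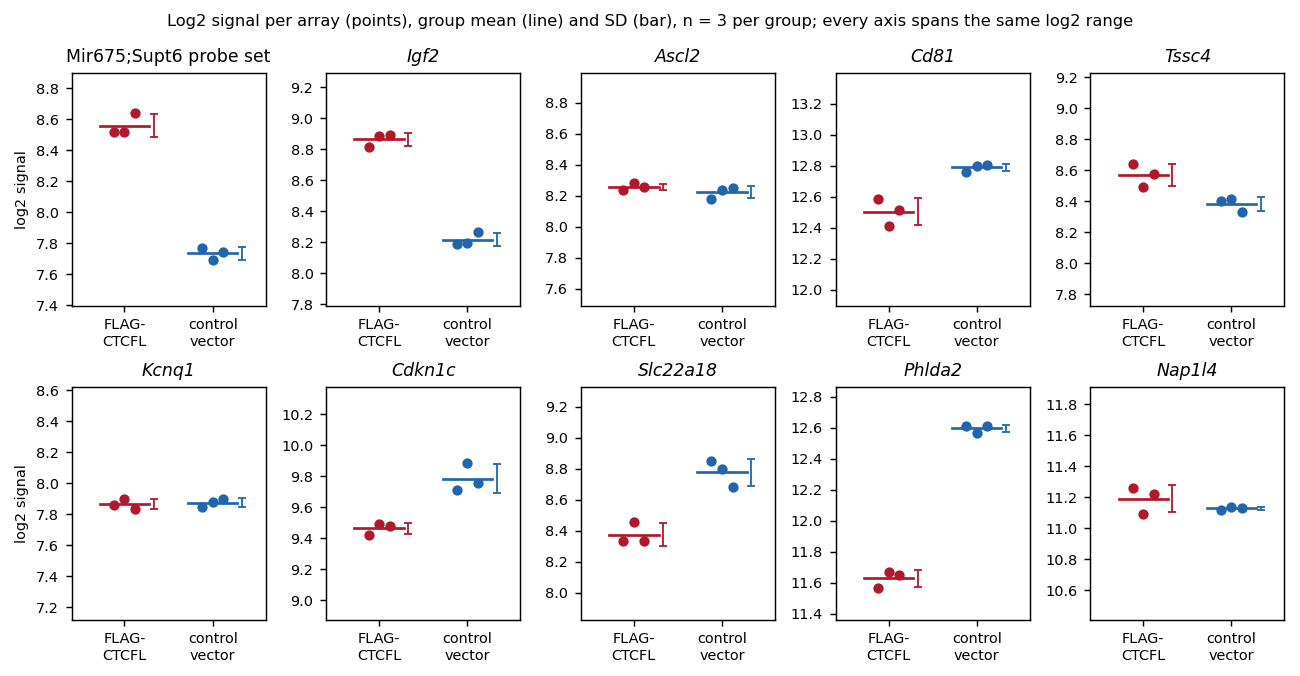
Log2 signal (vertical axes, all spanning the same range) of the probe set annotated to Mir675 and Supt6 and of the 9 measured genes in FLAG-CTCFL (red, left) and control vector arrays (blue, right). Points are arrays, lines group means and bars SDs (n = 3 per group). Igf2 lies between 8.82 and 8.89 in FLAG-CTCFL arrays and between 8.19 and 8.27 in control arrays, and Phlda2 between 11.57 and 11.67 against 12.57 and 12.61.

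Cdkn1c, Slc22a18 and Phlda2 are the best known maternally expressed genes of the Kcnq1 domain and lie on the side of Kcnq1 away from Igf2. Phlda2 codes for a small pleckstrin homology domain protein that restrains growth of the placenta. Its log2 signal was 11.57, 11.67 and 11.65 in FLAG-CTCFL arrays and 12.61, 12.57 and 12.61 in control vector arrays. The gap between the groups, 0.90, was far wider than the spread within either, and the log2 fold change was -0.97 ± 0.04 (SE; 95% confidence interval -1.06 to -0.87; limma adjusted p = 4.37e-09). Phlda2 ranked 139th from the bottom of all genes, and 0.928% of genes had a larger absolute change.

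Slc22a18, a gene for a transporter of organic cations, read 8.33, 8.46 and 8.33 in FLAG-CTCFL arrays and 8.85, 8.80 and 8.68 in control vector arrays. Every FLAG-CTCFL array was below every control array, by at least 0.22, and the log2 fold change was -0.40 ± 0.05 (SE; limma adjusted p = 6.99e-05). Cdkn1c codes for an inhibitor of cyclin-dependent kinases that stops the cell cycle in differentiating embryonic tissue. It read 9.42, 9.49 and 9.48 in FLAG-CTCFL arrays and 9.71, 9.89 and 9.76 in control vector arrays. The groups did not overlap, and the log2 fold change was -0.32 ± 0.05 (SE; limma adjusted p = 0.000277).

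Kcnq1 codes for a voltage-gated potassium channel, and its intron holds the start of Kcnq1ot1. It read 7.86, 7.90 and 7.83 in FLAG-CTCFL arrays and 7.84, 7.88 and 7.90 in control vector arrays. The groups overlapped, and the difference of -0.0096 had a 95% confidence interval of -0.10 to 0.08 (limma adjusted p = 0.910). Its signal was close to 7.63, a level that 95% of 1194 genes for olfactory or vomeronasal receptors, used here as dim genes, did not reach, so a change of a weak transcript could be understated. Kcnq1ot1 itself had no probe set with its symbol alone and was not analysed here.

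The members of the Kcnq1 domain nearer to Igf2 differed in direction. Cd81, a gene for a tetraspanin of the cell surface, read 12.59, 12.41 and 12.51 in FLAG-CTCFL arrays and 12.76, 12.80 and 12.81 in control vector arrays. The FLAG-CTCFL arrays were all lower, with a wider spread, and the log2 fold change was -0.28 ± 0.05 (SE; limma adjusted p = 0.000599). Without FLAG-CTCFL replicate 2, the lowest array, it was -0.24. Its neighbour Tssc4, which takes part in the assembly of spliceosomal ribonucleoproteins, read 8.64, 8.49 and 8.58 in FLAG-CTCFL arrays and 8.40, 8.42 and 8.33 in control vector arrays. The groups were only 0.08 apart, and the log2 fold change was 0.19 ± 0.05 (SE; limma adjusted p = 0.00998). This call was lost without control vector replicate 3 (0.16, limma adjusted p = 0.0581), after subtraction of array medians (0.16, limma adjusted p = 0.0619) and without a variance shared between genes (adjusted p = 0.0791).

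Ascl2, a basic helix-loop-helix factor needed for the spongiotrophoblast of the placenta, read 8.24, 8.28 and 8.26 in FLAG-CTCFL arrays and 8.18, 8.24 and 8.25 in control vector arrays. The groups overlapped, and the difference of 0.04 had a 95% confidence interval of -0.06 to 0.13 (limma adjusted p = 0.622). Nap1l4, a histone chaperone gene that is only weakly imprinted, is the listed gene furthest from Igf2. It read 11.26, 11.09 and 11.22 in FLAG-CTCFL arrays and 11.12, 11.14 and 11.13 in control vector arrays. FLAG-CTCFL replicate 2 alone lay below the control arrays. The difference of 0.06 had a 95% confidence interval of -0.05 to 0.17 (limma adjusted p = 0.422), and the gene passed after quantile normalization (0.12, limma adjusted p = 0.0200) and with array weights (0.085, limma adjusted p = 0.0445).

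Set side by side, Igf2 changed by 0.65, and the 8 listed genes of the Kcnq1 domain by -0.97 to 0.19. Their median was -0.15, against 0.0037 over all genes tested. The genes beyond Nap1l4, given further below, are not counted among these 8. Of these 8, 4 were lower, 1 was higher and 3 did not pass. Those that passed are 62.5% of the 8, against 30.9% of all genes. By signal, 4 of the 8 lay in the brightest class and 3 in the next, where 48.6% and 50.1% of genes passed. The largest rise among these 8, that of Tssc4, had a 95% confidence interval of 0.08 to 0.29, and its call was lost in some settings, as given above. With 1 measured gene on the Igf2-H19 side and members chosen with their values known, the difference between the domains is a description and was not tested.

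Genes that share the region but were not listed changed little between the outermost members. Of 27 genes that the gene table (GRCm38.p6) places between H19 and Nap1l4, 16 were measured, and none of the 7 that are not listed passed limma's test (1 did at an unadjusted p under 0.05). Their log2 fold changes ran from -0.05 to 0.10. They include Ins2, an insulin gene (0.05), Th, for tyrosine hydroxylase (0.06), Tspan32 (-0.05) and the ion channel gene Trpm5 (0.04). Of these 7 genes 2 lay in the dimmest signal class and 3 in the second dimmest, where 3.79% and 21.1% of genes passed. Another 2 lay in the third class, where 50.1% did, and none in the brightest. Small changes could therefore be missed, and Tspan32 passed with array weights (-0.087, limma adjusted p = 0.0413).

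Among the 21 measured genes within 15 gene positions on either side, 3 were higher and 3 lower, with a median of 0.04. That is 28.6%, near the 30.9% of all genes that passed. Beyond Nap1l4, the decoy receptor gene Tnfrsf22 fell to 9.47 ± 0.06 in FLAG-CTCFL cells, against 9.98 ± 0.07 in control vector cells (SD, n = 3 each), by 0.51 on the log2 scale (limma adjusted p = 4.41e-06). Its neighbour Tnfrsf23, a related receptor gene, was higher at 0.18 (limma adjusted p = 0.0106), a call lost without FLAG-CTCFL replicate 3 (0.15, limma adjusted p = 0.0643). Nadsyn1, of NAD synthesis (-0.22), and Dhcr7, for the last enzyme of cholesterol synthesis (-0.23), were lower. The tRNA ligase gene Cars, the first measured gene beyond Nap1l4, did not pass (0.08), but did after quantile normalization (0.15, limma adjusted p = 0.00715). Osbpl5, an oxysterol binding protein gene that lies beyond Tnfrsf22 and Tnfrsf23, did not pass (-0.07). On the H19 side Krtap5-1 (0.14) and Lsp1 (0.13) were slightly higher, calls lost without control vector replicate 1 (limma adjusted p = 0.104 and 0.0657) and control vector replicate 3 (0.0517 and 0.0682). Lsp1 also lost its call without each other array except FLAG-CTCFL replicate 1. The ribosomal protein gene Mrpl23, next to H19, did not pass (0.07; 0.024 to 0.12 over left-out arrays), but did after quantile normalization (0.13, limma adjusted p = 0.0362) and with array weights (0.15, limma adjusted p = 0.00288).

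**Figure D2:**
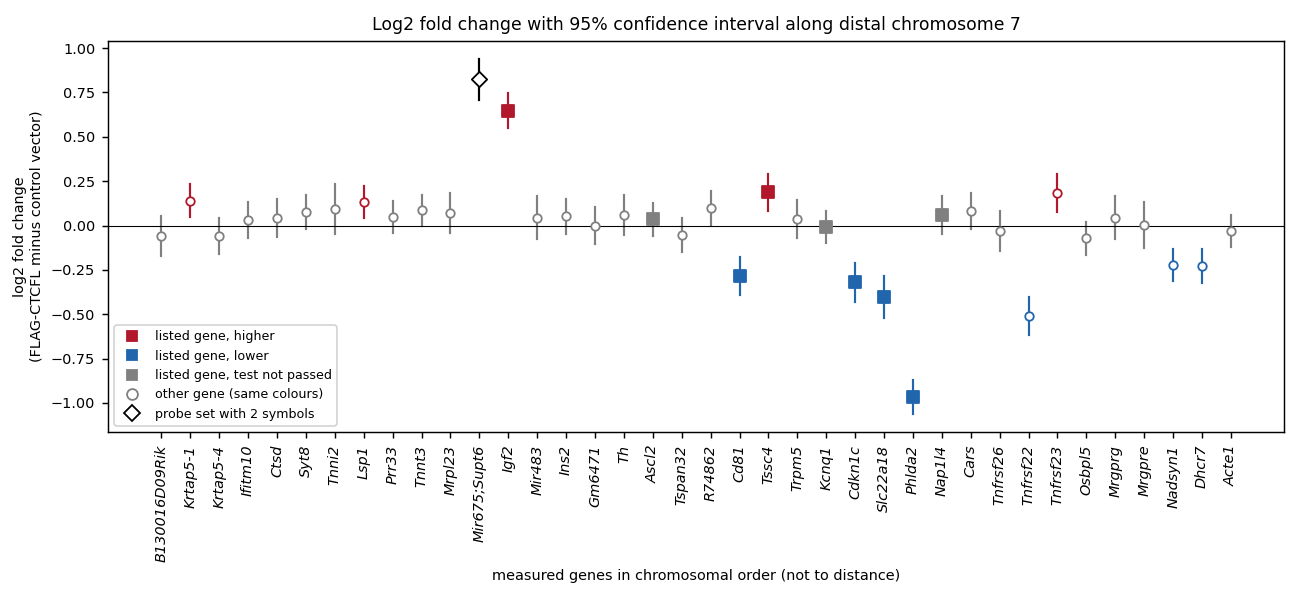
Log2 fold change (FLAG-CTCFL minus control vector, vertical axis) with 95% confidence interval for the 37 measured genes of the region in chromosomal order, spaced evenly; squares are listed genes, circles other genes, and the open diamond is the probe set annotated to both Mir675 and Supt6. That probe set is drawn where Mir675 lies, although its signal cannot be given to Mir675 alone. Igf2 (0.65) stands next to it, and Cdkn1c (-0.32), Slc22a18 (-0.40) and Phlda2 (-0.97) stand side by side further right, with values near 0 between them except for Cd81 (-0.28) and Tssc4 (0.19).

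A wider list of the region, with more distant genes, gave 4 higher and 4 lower of 22 measured, or 36.4%. Its other members that passed were Cttn, for the actin binding protein cortactin (-0.31), Shank2, a scaffold gene of synapses (0.21), and Dusp8, a MAP kinase phosphatase gene (0.18). Shank2 lost its call without FLAG-CTCFL replicate 3 and with the mean of its probe sets (0.13, limma adjusted p = 0.0597). Shank2 and Dusp8 both lost theirs in the test without a variance shared between genes (adjusted p = 0.101 and 0.0831). The median of the list was 0.05, and without FLAG-CTCFL replicate 3 the count of higher genes was 1.

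**Figure D3:**
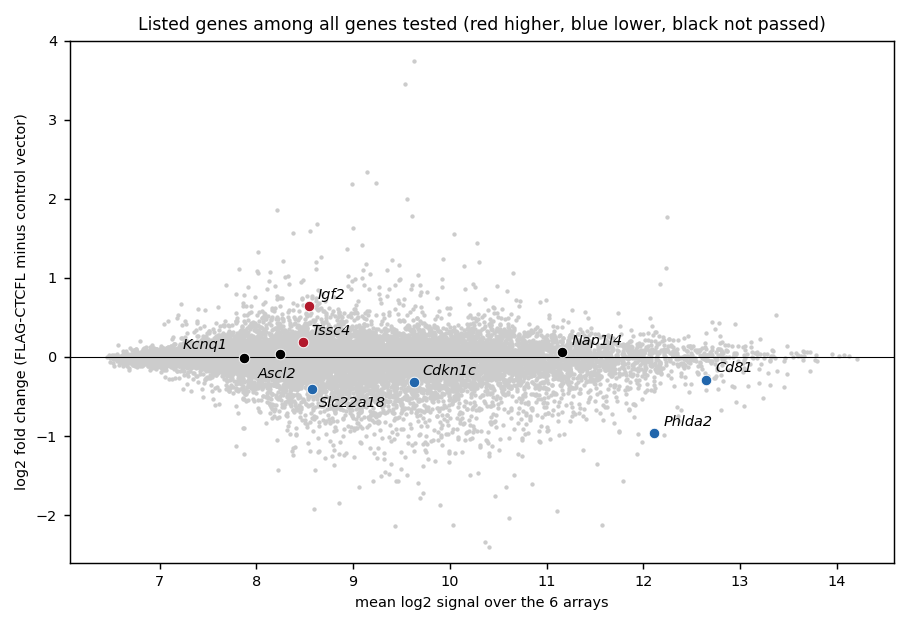
Log2 fold change (FLAG-CTCFL minus control vector, vertical axis) against mean log2 signal over the 6 arrays (horizontal axis) for all 19937 genes tested (grey) and the 9 listed genes. Phlda2 (-0.97) and Igf2 (0.65) lie further from 0 than the other 7, which run from -0.40 to 0.19.

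Genes that act on the product of Igf2 moved both ways. Of 16 measured receptors, binding proteins and RNA binding proteins of IGF2, 6 were higher and 3 lower, with a median of 0.07. That is 56.2% of the list, against 30.9% of all genes. Igf2r, for the receptor that clears IGF2 and itself imprinted, averaged 10.38 ± 0.12 in FLAG-CTCFL cells and 9.97 ± 0.14 in control vector cells (SD, n = 3 each), a rise of 0.41 (limma adjusted p = 0.000568). This call was lost in the test without a variance shared between genes (adjusted p = 0.0737). Igf1r, for the receptor through which IGF2 signals, differed by 0.07 (limma adjusted p = 0.406; 0.011 to 0.11 over left-out arrays) and passed with array weights (0.16, limma adjusted p = 0.00262). Insr, for the insulin receptor, fell by 0.26. Irs1, an adaptor of these receptors (0.50), Igfbp3, for a binding protein in serum (0.36), and the genes for the mRNA binding proteins Igf2bp3 (0.36) and Igf2bp1 (0.22) rose. Igfbp7 (-1.78) and Igfbp2 (-0.50), both for secreted binding proteins, fell.

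Of 11 measured genes of the family and partners of Cdkn1c 5 fell, Cdkn1c among them, and 1 rose, with a median of -0.10. That is 54.5% of the list, near the 48.6% of the brightest signal class, in which 9 of the 11 lay. The gene that rose was Ccne2, for a cyclin that these inhibitors bind (0.16), a call lost without any 1 array other than FLAG-CTCFL replicate 2. Cdkn1b, the inhibitor gene most like Cdkn1c that is not imprinted, averaged 9.85 ± 0.16 in FLAG-CTCFL cells and 10.79 ± 0.05 in control vector cells (SD, n = 3 each), a fall of 0.93 on the log2 scale (limma adjusted p = 2.57e-07). Ccnd1, for a D-type cyclin, and Cdk2, a kinase gene whose product the inhibitors bind, each fell by 0.43, and Skp2, for the ubiquitin ligase subunit that removes Cdkn1b protein, fell by 0.24.

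Of 23 genes that read or keep imprints, 3 were higher, the overexpressed Ctcfl itself among them, and 6 lower, and 7 and 7 without FLAG-CTCFL replicate 2. That is 39.1%, between the 30.9% of all genes and the 48.6% of the brightest class, in which 19 of the 23 lay. The list median was 0.01. Zfp568, which in mouse represses a placental transcript of Igf2, rose by 0.20 (limma adjusted p = 0.0157), a call lost without control vector replicate 3 (0.17, limma adjusted p = 0.0781). Dnmt3l, the cofactor of de novo DNA methylation, rose by 0.40 and the methyltransferase gene Dnmt3a fell by 0.53, while Uhrf1, needed to copy methylation, fell by 0.21. The call of Dnmt3l was lost in the test without a variance shared between genes (adjusted p = 0.0755). Dnmt1, the maintenance methyltransferase gene (0.13), and Trim28, for a corepressor at imprinted control regions (0.13), did not pass. Both passed without FLAG-CTCFL replicate 2 (0.16 each, limma adjusted p = 0.0258 and 0.0364) and after quantile normalization (0.18 and 0.13), and Dnmt1 with array weights (0.097). Of 38 measured imprinted genes elsewhere, 16 were higher and 6 lower, with a median of 0.08. That is 57.9% of the list, against 30.9% of all genes. Of the 38, 14 lay in the brightest signal class and 9 in the next, where 48.6% and 50.1% of genes passed. The smallest p-values of these imprinted genes belonged to Grb10 (-2.34), Mest (3.74), Peg10 (1.78) and H13 (0.86). Plagl1, for an imprinted zinc finger protein that in mouse activates Igf2 and H19, rose by 0.56 (limma adjusted p = 2.07e-06).

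Markers of the labelled cell type were present in all arrays. All 10 measured ES cell markers lay above the range of the receptor genes, 6 were lower in FLAG-CTCFL cells and none higher by limma (7 and none at an unadjusted p under 0.05), and 1 was higher without FLAG-CTCFL replicate 2. The 6 that passed are 60% of the list. All 10 lay in the brightest signal class, where 48.6% of genes passed. The smallest p-values were those of Nanog (-0.62), Esrrb (-0.50), Dppa5a (-0.38) and Tdgf1 (-0.37), and the mean of the list was 12.07 to 12.20 in FLAG-CTCFL arrays and 12.39 to 12.41 in control vector arrays. Igf2, Phlda2, Ascl2 and Cdkn1c are strongly used in placenta and in mesoderm or endoderm, so markers of those cells are given beside them. Of 12 trophoblast markers 5 were higher, led by Krt8 (1.15), Krt18 (1.04) and Eomes (0.61), and 2 lower, Tfap2c (-0.73) and Ets2 (-0.60). That is 58.3% of the list, against 30.9% of all genes. The list mean was 8.46 to 8.54 in FLAG-CTCFL arrays and 8.28 to 8.31 in control vector arrays. The trophoblast markers Elf5 (7.57 in both groups), Plac1 (7.49 and 7.41) and Tpbpa (6.95 and 6.93) lay below 7.63.

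Of 10 endoderm markers 4 were higher, Pdgfra (0.54), Apoa1 (0.20), Dab2 (0.19) and Gata6 (0.14), and none lower by limma (5 and none at an unadjusted p under 0.05), with a list mean of 7.89 to 7.95 in FLAG-CTCFL arrays and 7.80 to 7.83 in control vector arrays. The 4 that passed are 40% of the list, against 30.9% of all genes. Of the 10, 6 lay in the second dimmest signal class, where 21.1% of genes passed. The call of Gata6 was lost without any 1 array other than FLAG-CTCFL replicate 2 and with the replicate block (limma adjusted p = 0.0558), and that of Dab2 with the mean of its probe sets (0.063, limma adjusted p = 0.321). Afp (7.60 and 7.57), Sox17 (7.57 and 7.48) and Ttr (7.45 and 7.41) lay below 7.63. Of 9 mesoderm markers 3 were higher, Mixl1 (0.31), Des (0.29) and Kdr (0.15), and none lower by limma (5 and none at an unadjusted p under 0.05), with a list mean of 7.96 to 7.997 in FLAG-CTCFL arrays and 7.82 to 7.88 in control vector arrays. The 3 that passed are 33.3% of the list, near the 30.9% of all genes. Of the 9, 7 lay in the second dimmest signal class, where 21.1% of genes passed. Mesp1 (7.61 and 7.59) lay below 7.63. The call of Kdr was lost without FLAG-CTCFL replicate 1, control vector replicate 1 or control vector replicate 3 (largest limma adjusted p = 0.0911). Of 10 fibroblast markers Col1a1 (0.16) was higher, a call that only leaving out FLAG-CTCFL replicate 1 or control vector replicate 3 spared, and Thy1 (-0.48) lower, with a list mean of 8.31 to 8.37 in FLAG-CTCFL arrays and 8.32 to 8.36 in control vector arrays. The 2 that passed are 20% of the list, against 30.9% of all genes. Lum (6.94 and 6.90), Postn (7.13 and 7.19) and Dcn (7.36 and 7.27) lay below 7.63. The part of such cells in the values of Igf2, Phlda2 and Cdkn1c was not tested.

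**Figure D4:**
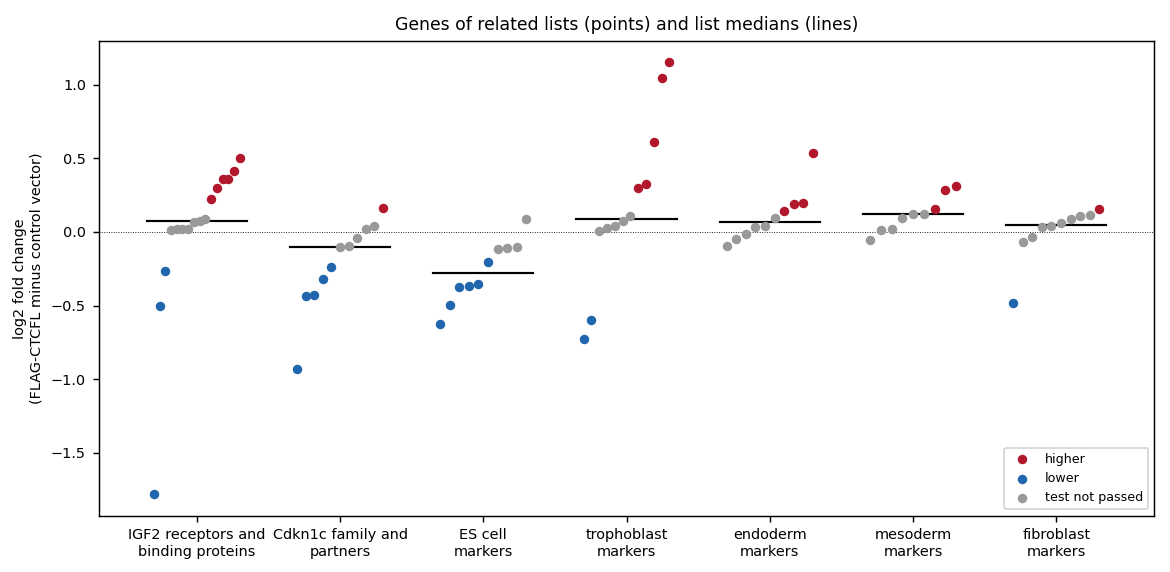
Log2 fold change (FLAG-CTCFL minus control vector, vertical axis) of the genes of 7 lists set beside the imprinted domains, ordered by value within each list; points are genes, red higher, blue lower and grey not past the test, and black lines are list medians. The medians run from -0.28 for ES cell markers to 0.12 for mesoderm markers, and the IGF2 list is spread from -1.78 to 0.50.

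The genes most like Igf2 over the 6 arrays, by Euclidean distance of log2 signals taken relative to the control mean, were Neto2, a receptor accessory protein gene on chromosome 8 (distance 0.0850), Nckap1l, for an actin regulator, on chromosome 15 (0.0959), and Iqgap2, a scaffold gene on chromosome 13 (0.0984). Their log2 fold changes were 0.63, 0.66 and 0.63. Those most like Phlda2 were Clybl, a mitochondrial lyase gene on chromosome 14 (distance 0.0751, log2 fold change -0.95), Nsdhl, of cholesterol synthesis, on chromosome X (0.0901, -0.95), and Miip on chromosome 4 (0.0978, -0.97). The measure takes in the difference between groups, so it finds genes with a change of the same size.

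**Figure D5:**
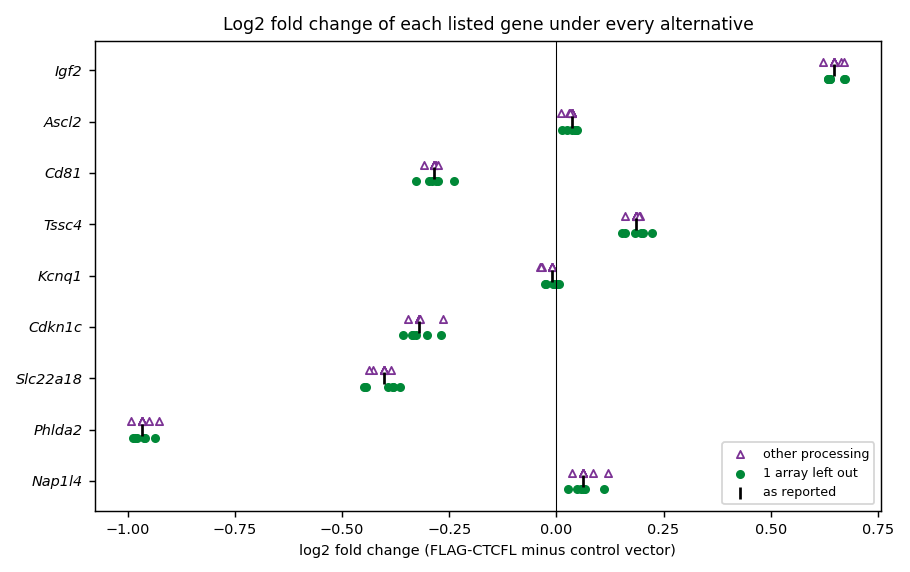
Log2 fold change (FLAG-CTCFL minus control vector, horizontal axis) of each listed gene as reported (black tick), with each array left out in turn (green circles) and under other processing (violet triangles). Igf2 stayed between 0.62 and 0.67 and Phlda2 between -0.99 and -0.93 in all settings shown, and the values of Kcnq1 lay on both sides of 0.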

How the data were processed

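Total RNA of 6 samples, 3 per group, was labelled with the GeneChip WT Terminal Labeling Kit and hybridised to Mouse Gene ST arrays, per the labels' protocols. The authors deposited 1 value for each probe set on each array, which by its range is a log2 signal. How they corrected background, summarised probes and normalized is not given in the sources used here.

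The table had 34760 probe sets, of which 21640 had 1 gene symbol in the platform annotation, 1321 several and 11799 none. Entrez IDs served to update symbols from RefSeq's GRCm38.p6 table (21553 matched), and the brightest probe set per gene was kept, giving 19937 genes. The test was limma's (version 3.58.1, R 4.3.3): a linear model per gene with a term for group, moderated by eBayes, two-sided, with Benjamini-Hochberg adjustment over all genes and a threshold of 0.05. The number of arrays limits the precision. Tables and figures used Python 3.11.15. The procedure was tested on simulated data.

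Text names all listed genes, Ctcfl and Ctcf, genes of the region past the threshold and Ins2, Th, Tspan32, Trpm5, Osbpl5, Cars and Mrpl23 in any case, up to 4 genes per list by p, and the 3 genes nearest to Igf2 and to Phlda2. Igf2r, Igf1r, Insr, Igf2bp1, Igf2bp3, Zfp568, Dnmt1, Trim28, Plagl1, Ets2, Skp2, Ccne2 and the dim markers were named after their values were seen. Members and lists were chosen with earlier results of these data known. Alternatives were the replicate block, 2 other scalings, 2 filters, 2 treatments of probe sets, 2 variance models, array weights and each array left out. Arrays carried no scan date here, so no batch was tested. Promoter and microRNA sequences are RefSeq's (GRCm38.p6).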

Additional observations from a re-analysis of the deposited data

How the results depend on the processing

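Of 143 values of the 9 listed genes under alternatives, 136 kept their direction and side of the threshold. Tssc4 lost its call without control vector replicate 3, with no shared variance (0.19) and after subtraction of array medians (0.16), with 0.15 to 0.22 over left-out arrays, and the count of listed genes higher was then 1 in each case. Nap1l4 passed after quantile normalization (0.12) and with array weights (0.085). Kcnq1 changed sign without FLAG-CTCFL replicate 3 (0.0050) or control vector replicate 3 (0.0020), within -0.027 to 0.0050 over left-out arrays. Values near 0 also changed sign for Ctcf after subtraction of array medians (-0.011), with array weights (-0.0052) and without FLAG-CTCFL replicate 1 or control vector replicate 1 (-0.0070), within -0.023 to 0.041 over left-out arrays, for Th with array weights (-6.07e-05), and for Trpm5 with array weights (-0.0055) and without FLAG-CTCFL replicate 2, within -0.012 to 0.062 over left-out arrays. Elf5 did so after quantile normalization (-0.019), subtraction of array medians (-0.016), with array weights (-0.023) and within -0.016 to 0.029 over left-out arrays, and Lum with array weights (-0.0034). Small calls (0.22 or less) of Krtap5-1, Lsp1, Zfp568, Gata6, Kdr, Col1a1, Ccne2 and Igf2bp1 were lost after subtraction of array medians and with all probe sets tested, and, except those of Krtap5-1 and Lsp1, with no shared variance. Larger calls were also lost with no shared variance, those of Igf2r (0.41), Dnmt3l (0.40) and Igf2bp3 (0.36, adjusted p = 0.0503 in that test). The same test lost the calls of Apoa1, Dab2, Shank2, Dusp8 and Tnfrsf23. The cause of these shifts was not tested. Over all genes 2496 were higher and 3665 lower as reported. With no shared variance 1458 were higher, in a total of 3924, and with array weights 4195 were higher. Left-out arrays gave 1 to 2 listed genes higher and 4 lower, and 4950 to 6429 genes in all, with 1905 to 2818 higher. The share of higher genes among those called moved by scaling, to 3451 higher and 3654 lower after quantile normalization and 1785 and 3811 after subtraction of array medians. The probe set annotated to Mir675 and Supt6 gave 0.78 to 0.85 over left-out arrays and passed in each; its alternatives were chosen after the data were seen. Same-numbered arrays did not deviate together (Pearson's r of deviations 0.13, -0.20 and -0.02), so the numbers were not taken as pairs. The replicate block gave 2398 higher and 3581 lower genes and left 2 listed genes higher and 4 lower. Small changes of Kcnq1 and the other dim genes may be missed where signal nears that of the receptor genes.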
